A study of Mus musculus with 7 samples.

Results

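The 10 genes described here encode bone morphogenetic proteins (Bmp2, Bmp4, Bmp6 and Bmp7), their receptors (Bmpr1a, Bmpr1b and Bmpr2) and their secreted antagonists (Grem1, Nog and Chrd). They were taken by symbol from the 27179 genes of the deposited table, and all 10 were found there under their Entrez numbers. RNA was sequenced from whole ankles, without skin, of DBA1 mice with collagen-induced arthritis. The joints of both groups had been injected with a lipoplex, a lipid carrier of RNA, which held an irrelevant microRNA in the control group (n = 3) and a mimic of miR-17-5p in the other (n = 4). Values are FPKM, that is reads scaled by exon length and by the library's total. The sources used here give neither the age and sex of the mice nor the time between injection and dissection. They also leave unsaid whether each ankle is from a different mouse, so p-values measure only the spread between these samples. Because the whole joint was taken, fewer cells of a type and less RNA per cell cannot be told apart in any value below.

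Bone morphogenetic proteins (BMPs) are secreted dimers of the TGF-beta superfamily that bind a complex of type I and type II receptor kinases. The type I receptor then phosphorylates Smad1, Smad5 and Smad9, which enter the nucleus with Smad4 and switch on genes such as those of the Id family. Gremlin, noggin and chordin, encoded by Grem1, Nog and Chrd, bind the ligands outside the cell and keep them from the receptors. In joints the pathway is known for its part in cartilage and bone formation, in bone repair and in the ossification of inflamed tendon insertions. Bmpr2 is among the genes reported as targets of the miR-17 family.

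The 7 libraries held from 27465276 to 31118975 reads. Of 13418 genes averaging 1 FPKM or more, limma on log2(FPKM + 0.5) called 0 after Benjamini-Hochberg adjustment at 0.05, and for 2356 the p before adjustment was under 0.05. With limma-voom on the reads recovered from the FPKM values these counts were 0 and 2362. Without control replicate 2, limma called 318 genes. Among 12 lists of cell type markers the summed FPKM of 2 did not overlap between the groups, both higher with the mimic. The first was of adipocyte genes, at 582 to 1028 in control and 1137 to 1485 in mimic ankles, with 8 of 8 means higher. The other was of osteoblast genes, at 7287 to 7633 and 8047 to 8646, again 8 of 8. Means were also higher in 8 of 8 skeletal muscle, 8 of 8 erythroid, 6 of 6 nerve and 9 of 10 cartilage genes. They were higher in 6 of 8 endothelial, 5 of 6 tendon, 4 of 8 synovial fibroblast and 3 of 8 macrophage genes. For the neutrophil and epidermal lists the counts were 0 of 8 and 0 of 6. Control replicate 5 stood apart, with epidermal genes at a sum of 77.4 FPKM against 1.06 to 1.62 in the other 6 libraries, and with the lowest sums of the cartilage, osteoblast, adipocyte, skeletal muscle, erythroid and nerve lists. Of the listed markers present in the table, Krt77 alone was at 0 in every library.

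The mimic acts through its seed, bases 2 to 8 of the microRNA, which pairs with matching bases in the 3′ UTR of a messenger RNA. The mature sequence, as RefSeq gives it for GRCm38.p6, is printed with the seed in capitals.

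mmu-miR-17-5p: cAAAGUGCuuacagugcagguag

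Matches to the seed read GCACTTT on the sense strand of the messenger, or CACTTTA where the last 6 of those bases are followed by an A. GCACTTTA, which joins both, was found in the longest annotated 3′ UTR (GENCODE M21, GRCm38) of 0 of the 10 genes, against 4.23% of 12495 tested genes with a UTR. Either 7-base form was found in 3 of the 10, Bmpr2, Bmp2 and Bmpr1b, and 21.4% of tested genes held a match of at least 7 bases. The matches are shown because they are the places where the injected mimic could pair with these genes, with the matching bases in capitals.

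Bmpr2, first match, chr1:59870672-59870696, plus strand: gttttttaagttttGCACTTTtgtt
Bmpr2, second match, chr1:59874348-59874372, plus strand: tatggtatcacactGCACTTTtact
Bmp2, chr2:133561790-133561814, plus strand: aaaaaaccagctgaCACTTTAatat
Bmpr1b, chr3:141839529-141839553, minus strand: ggttaatgtccctaCACTTTAattt

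The Bmpr2 matches began 201 and 3877 bases after the stop codon in a 3′ UTR of 8529 bases, which also held 6 matches of 6 bases (CACTTT). A UTR of this length more often than not holds a match: of 138 tested genes with a UTR of like length (a ratio of shorter to longer of at least 0.8), 74.6% held one of at least 7 bases. For Bmp2, with a UTR of 1170 bases, the share among genes of like length was 18.4%, and for Bmpr1b, with 3479 bases, 44.5%. The exons that the deposited table lists held the first 374 bases of the Bmpr2 UTR, 4.39% of it, with the first match but not the second. The Bmpr2 values below therefore hold reads from little of its 3′ UTR.

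**Figure D1:**
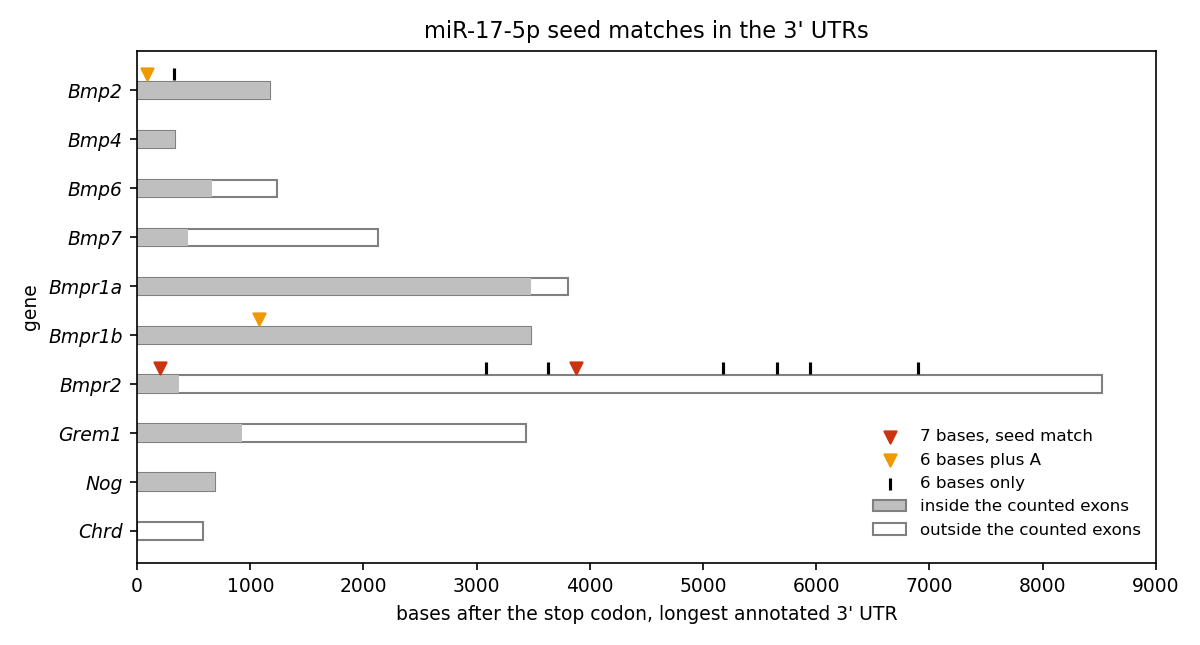
Bars give the longest annotated 3′ UTR of each of the 10 genes in bases after the stop codon (x axis), filled where the exons listed in the deposited table cover it, and marks give matches to the miR-17-5p seed. Bmpr2 has the longest UTR of the 10, 8529 bases, of which the listed exons hold 374.

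Bmpr1a was the most abundant of the 10 genes, with a mean of 14.6 FPKM over the 7 libraries, and in every library it stood above Chrd, the next at 7.87 FPKM. Bmp4, at 7.52 FPKM, followed closely: Chrd was above it in 5 of 7 libraries, so these neighbours did not differ beyond their spread. Bmp2 followed at 5.10 FPKM, below Bmp4 in 7 of 7 libraries although their ranges met, and above Bmpr2 in 6 of 7, again with overlap. Bmpr2 (3.69 FPKM), Nog (3.06) and Bmp6 (2.66) had overlapping ranges, with Bmpr2 above Nog, and Nog above Bmp6, in 4 of 7 libraries each. Grem1 (1.01 FPKM), Bmp7 (0.979) and Bmpr1b (0.868) formed a low set whose ranges overlapped and which lay below Bmp6 in each library. The counted exons held unlike shares of the longest 3′ UTRs, from 0% for Chrd and 4.39% for Bmpr2 to 91.2% for Bmpr1a. For Bmp2, Bmp4, Bmpr1b and Nog the share was 100%. The part of these shares in the order of levels was not tested. Summed by role, ligands came to between 11.9 and 18.7 FPKM, receptors to between 17.9 and 20.6 FPKM and antagonists to between 10.4 and 14.3 FPKM. The antagonist sum was 0.727 to 0.883 of the ligand sum in control ankles and 0.558 to 0.824 in mimic ankles, so the groups overlapped.

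**Figure D2:**
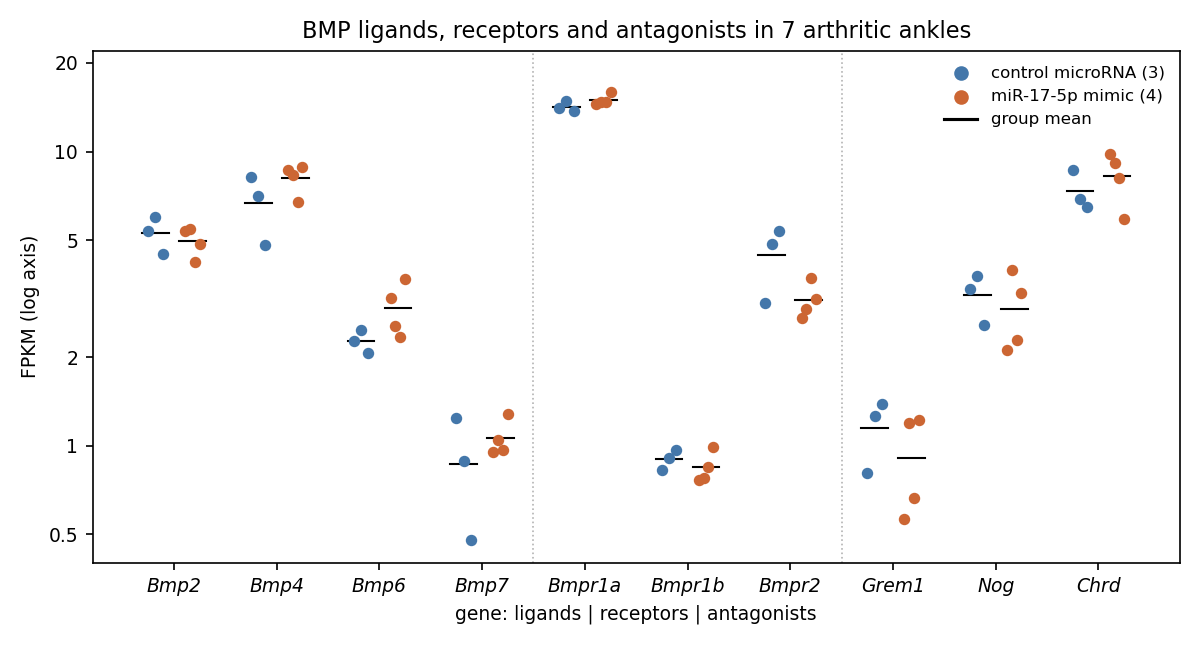
Points give the FPKM of each of the 10 genes (x axis, ordered as ligands, receptors and antagonists) in each control and mimic library on a log axis, and bars the group means. Bmpr1a lies highest at 13.7 to 15.9 FPKM, and for each gene the control and mimic points overlap.

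None of the 10 genes separated control from mimic ankles. Of the 8 that averaged 1 FPKM or more, limma called 0 after adjustment at 0.05 (0% of all genes tested). Before adjustment 0 of them had p under 0.05, where 17.6% of all genes tested did. In 0 of the 10 did the groups fail to overlap, where this held for 15.3% of genes tested, 6.48% with the mimic above and 8.84% with it below. Of the 8, 4 had a higher and 4 a lower mean on the log scale with the mimic, where 48.3% of all genes tested had a higher one. The log2 fold changes of the 8 had a median of -0.0013, beside -0.0063 over all genes tested. Bmp7 and Bmpr1b lay below the filter, and their fold changes come from a fit without it.

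Among the ligands, Bmp4, a driver of cartilage and bone formation (mm10 chr14:46383520-46390599, minus strand), stood at 8.17, 7.07 and 4.80 FPKM in control replicates 2, 3 and 5. In mimic replicates 1, 2, 4 and 5 it stood at 8.66, 8.33, 6.76 and 8.88 FPKM. Control replicate 5 was the lowest of the 7 libraries and mimic replicate 4 the next, so that the groups overlapped through the other controls. The log2 fold change, 0.29, had an SE of 0.17 (adjusted p = 0.402 by limma), with a 95% interval from -0.11 to 0.70. It was 0.089 without control replicate 5, the library with epidermal transcripts, and 0.44 without control replicate 2 (limma adjusted p = 0.147). The table lists a noncoding gene, Gm15217, over 89 bases of the Bmp4 exons, and it stood at 0 reads in every library.

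Bmp6, known as an iron-regulated ligand of the liver and a bone-forming factor (chr13:38345716-38499728), stood at 2.28, 2.48 and 2.07 FPKM in the control ankles. The mimic ankles had 3.19, 2.55, 2.34 and 3.70 FPKM. Of these, 3 lay above all controls and mimic replicate 4 lay within their range. The log2 fold change, 0.30, had an SE of 0.15 (adjusted p = 0.341 by limma) with an interval from -0.050 to 0.64. It was 0.38 without mimic replicate 4 (limma adjusted p = 0.279) and 0.19 without mimic replicate 5, the highest library (limma adjusted p = 0.553).

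Bmp2, the ligand best known for inducing bone (chr2:133553199-133562885), stood at 5.36, 5.98 and 4.50 FPKM in the controls and at 5.36, 5.44, 4.20 and 4.86 FPKM with the mimic. Control replicate 3 was the highest and mimic replicate 4 the lowest, and the other 5 libraries lay between them in no order of group. The log2 fold change, -0.078, had an SE of 0.12 (adjusted p = 0.735 by limma), and its interval allowed a ratio of mimic to control between 0.781 and 1.15. It was -0.18 without control replicate 5, -0.0082 without mimic replicate 4 and 0.0081 without control replicate 3. Bmp7, a ligand of kidney and joint development, rested on 29 to 73 reads per library. It stood at 1.24, 0.888 and 0.478 FPKM in the controls and at 0.954, 1.05, 0.971 and 1.28 FPKM with the mimic, where control replicate 5 was again the lowest. Its log2 fold change, 0.23, had an SE of 0.20 (adjusted p = 0.626 by limma without the filter).

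Among the receptors, Bmpr2, the type II receptor kinase that is specific to BMPs (chr1:59764637-59870859, plus strand), had the largest difference of the 10 genes. It stood at 3.06, 4.86 and 5.38 FPKM in control replicates 2, 3 and 5 and at 2.72, 2.92, 3.73 and 3.16 FPKM in mimic ankles. Control replicates 3 and 5 lay above all 4 mimic ankles, and control replicate 2 lay among them. The means were 4.43 ± 1.22 FPKM (SD, n = 3) and 3.13 ± 0.436 FPKM (SD, n = 4), from 289 to 582 reads per library. The log2 fold change was -0.42 (SE 0.18), with an unadjusted p of 0.0551 and a limma adjusted p of 0.294. The 95% interval ran from -0.85 to 0.012, a ratio between 0.556 and 1.01. The summed neutrophil markers, 8 of 8 with a lower mean with the mimic, were also highest in control replicates 3 and 5, at 6040 and 5406 FPKM. They came to 3036 FPKM in control replicate 2 and 1282 to 3234 FPKM with the mimic, highest in mimic replicate 1, where Bmpr2 was lowest. The summed synovial fibroblast markers, 4 of 8 with a higher mean with the mimic, stood at 2452 and 2130 FPKM in control replicates 3 and 5. In control replicate 2 they stood at 1582 FPKM, and with the mimic at 1636 to 1994 FPKM. The part of either list in the Bmpr2 value was not tested. The size of the Bmpr2 log2 fold change depended on single libraries. It was -0.64 without control replicate 2 (limma adjusted p = 0.0514) and -0.27 without control replicate 5 (limma adjusted p = 0.689).

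Bmpr1a, the widely expressed type I receptor kinase (chr14:34411068-34460615), had the narrowest spread of the 10 on the log2(FPKM + 0.5) scale, with 14.0, 14.9 and 13.7 FPKM in the controls and 14.5, 14.7, 14.7 and 15.9 FPKM with the mimic. It also had the most reads, 2175 to 2463 per library. Its log2 fold change, 0.076, had an SE of 0.057 (adjusted p = 0.502 by limma), and the interval allowed a ratio between 0.960 and 1.16. It was 0.047 without mimic replicate 5. Bmpr1b, a type I receptor tied to cartilage (chr3:141837136-141982251), stood at 0.825, 0.908 and 0.967 FPKM in the controls and at 0.766, 0.777, 0.844 and 0.994 FPKM with the mimic. The highest of the 7 libraries was mimic replicate 5 and the lowest mimic replicate 1, and the log2 fold change, -0.059, had an SE of 0.093 (adjusted p = 0.784 by limma without the filter).

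Among the antagonists, Grem1, which encodes gremlin, a binder of Bmp2 and Bmp4 (chr2:113748675-113758648), stood at 0.806, 1.27 and 1.39 FPKM in control ankles. In mimic replicates 2 and 5 it stood at 1.20 and 1.22 FPKM, and in replicates 1 and 4 at 0.563 and 0.666 FPKM, so the groups overlapped. The lowest value came from 28 reads, whose exact Poisson 95% interval, 0.374 to 0.814 FPKM, covers counting error only. The log2 fold change, -0.24, had an SE of 0.23 (adjusted p = 0.585 by limma). Leaving out control replicate 2 gave -0.40, mimic replicate 1 -0.12 and control replicate 5 -0.14.

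Nog, which encodes noggin (chr11:89300638-89302559), divided the mimic ankles in the same way, with 3.96 and 3.30 FPKM in replicates 2 and 5 and 2.11 and 2.29 FPKM in replicates 1 and 4. Control ankles had 3.40, 3.79 and 2.58 FPKM, and the log2 fold change, -0.16, had an SE of 0.21 (adjusted p = 0.699 by limma). Leaving out mimic replicate 2 or control replicate 5 gave -0.30 each, while leaving out mimic replicate 1, control replicate 3 or mimic replicate 4 gave -0.042, -0.057 and -0.074. The summed skeletal muscle markers were likewise higher in the first pair of libraries, with 7811 and 8857 FPKM in mimic replicates 2 and 5 and 2431 and 4109 FPKM in replicates 1 and 4. In control replicates 2, 3 and 5 the muscle sum was 6097, 2959 and 1059 FPKM. Of the controls, Nog was also lowest in replicate 5 but highest in replicate 3, and Grem1 ran in the reverse order of the muscle sum. Summed nerve markers stood at 310 and 312 FPKM in mimic replicates 2 and 5, and at 284 and 233 FPKM in 1 and 4. In control replicates 2, 3 and 5 they stood at 304, 234 and 165 FPKM. The neutrophil, macrophage, synovial fibroblast and endothelial sums were lower in mimic replicates 2 and 5 than in 1 and 4. The part of cell content in these values was not tested.

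Chrd, which encodes chordin (chr16:20733127-20742384), was the most abundant antagonist, between 56.7% and 78.6% of the antagonist sum. It stood at 8.67, 6.88 and 6.50 FPKM in control ankles and at 9.83, 9.15, 8.15 and 5.92 FPKM in mimic ankles. Mimic replicate 5 was the lowest of the 7 libraries and mimic replicate 1 the highest. The log2 fold change, 0.15, had an SE of 0.18 (adjusted p = 0.667 by limma). It was 0.29 without mimic replicate 5 (limma adjusted p = 0.413) and 0.26 without control replicate 2, but 0.059 without mimic replicate 1, 0.068 without control replicate 5 and 0.092 without mimic replicate 2. In the deposited annotation, 154 bases of the Chrd exons overlap those of Thpo on the other strand, whose reads cannot be told apart there unless the counting used strand, which the sources used here do not say.

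**Figure D3:**
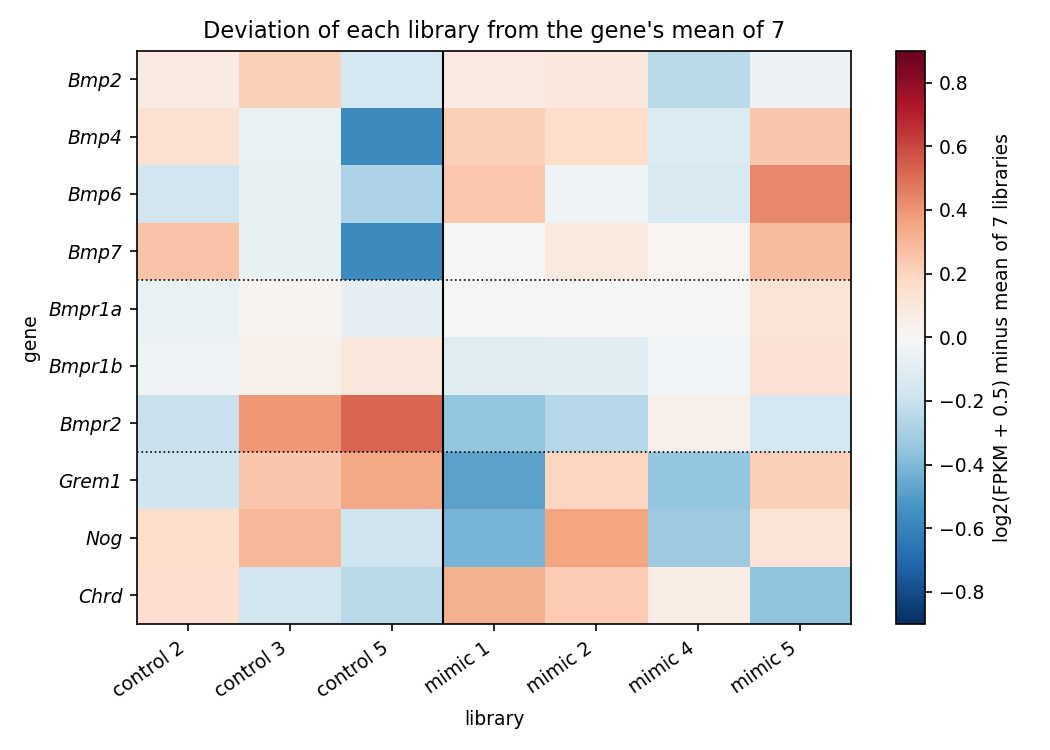
Each cell gives the log2(FPKM + 0.5) of 1 gene (rows) in 1 library (columns) minus that gene's mean over the 7 libraries, red above and blue below. Control replicate 5 held the lowest value of 4 genes and the highest of 2, and mimic replicate 1 the lowest of 4 others.

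**Figure D4:**
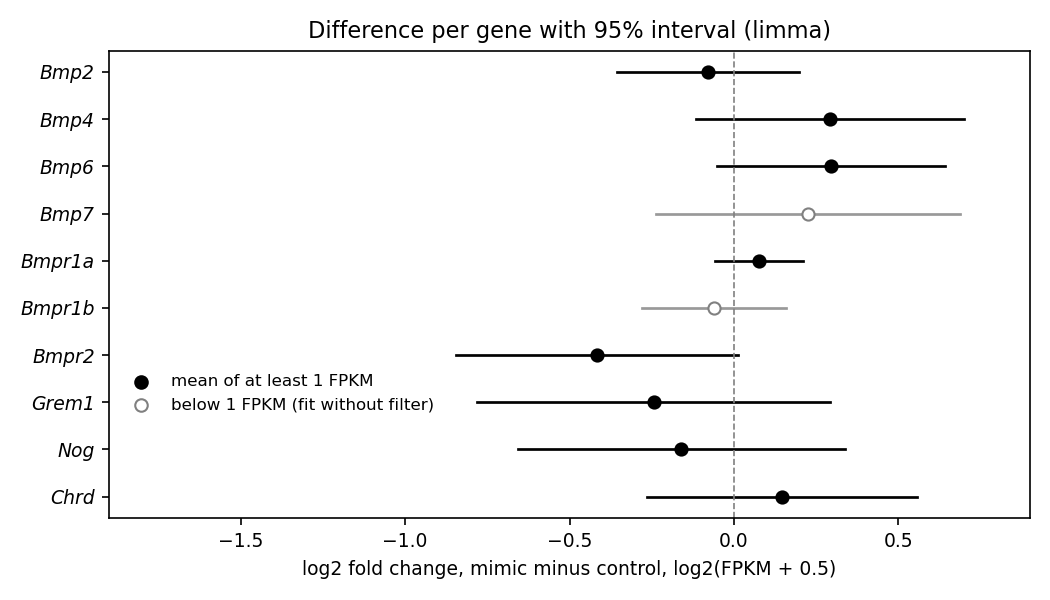
Points give the log2 fold change of each of the 10 genes, mimic minus control, and lines the 95% interval of the limma fit, open where the gene lay below the filter. Every interval includes 0, and that of Bmpr2 ends at 0.012.

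Another 64 genes of the pathway were taken from general knowledge, of which 56 were tested. After adjustment limma called 0 of them at 0.05, and 12 had p under 0.05 before it, to be read beside the 17.6% of all genes. Of these, 8 were higher (7.48% of all genes tested were) and 4 lower (10.1%) in mimic ankles. The median log2 fold change over the 56 was 0.040. Leaving out some single libraries moved the counts per list given below by over 1.5 times, except that of the other receptors, which ran from 2 to 4 around 3.

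All 5 tested ligands of the other BMP and GDF genes had a higher mean on the log scale with the mimic. Over all genes tested this share was 48.3%. The median difference of the 5 was 0.36 in log2 units. Of these, 1, or 2 without control replicate 2 or 3, had an unadjusted p under 0.05. The 1 was Gdf10, also called BMP3b, at 25.3, 20.2 and 10.4 FPKM in the controls and 35.1, 31.8, 31.0 and 38.5 FPKM with the mimic. Every mimic ankle lay above every control, and the log2 fold change, 0.94, had an SE of 0.27 (adjusted p = 0.187 by limma), or 0.58 without control replicate 5. The summed adipocyte and osteoblast markers had the same property, each with control replicate 5 again the lowest, and their part in this value was not tested. Bmp3 and Bmp8a had log2 fold changes of 0.26 and 0.36 with overlapping groups, and that of Bmp3 was 0.084 without control replicate 5. The other 5 listed ligands, Bmp8b, Bmp10, Gdf2, Gdf6 and Gdf7, had means below 1 FPKM. In the fit without the filter the list median was 0.17. There Bmp8b (0 to 2 reads per library) and Bmp10 (0 to 1) had lower means with the mimic, and Gdf2, Gdf6 and Gdf7 higher ones.

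Of 11 other receptors and co-receptors, 3 had an unadjusted p under 0.05, all higher in mimic ankles, and the median log2 fold change was 0.042. Rgma, a BMP co-receptor of the repulsive guidance family, stood at 7.35, 7.46 and 6.19 FPKM in the controls and 8.97, 9.21, 8.14 and 9.91 FPKM with the mimic, without overlap (0.35, SE 0.091, limma adjusted p = 0.176). Its relative Rgmb stood at 5.73 ± 0.483 and 7.34 ± 0.589 FPKM, also without overlap (0.33, SE 0.086). Bambi, a decoy receptor that lacks a kinase, stood at 6.76, 4.49 and 4.66 FPKM in the controls and 7.30, 7.74, 6.05 and 7.25 FPKM with the mimic. Control replicate 2 lay within the mimic range, and without it Bambi (0.58, limma adjusted p = 0.0489) was among the 318 genes that passed. Without control replicate 3 or 5 it was 0.30 or 0.33 (limma adjusted p = 0.452 and 0.600).

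Other antagonists and extracellular modulators lay on both sides, with 1 higher and 2 lower at an unadjusted p under 0.05 among 16 tested, and their median was -0.0062 in log2 units. Without control replicate 3 or 5, 1 gene of this list was left in all. Fst, which encodes follistatin, an activin and BMP binder, stood at 14.8 ± 1.73 FPKM in the controls and 12.0 ± 0.777 FPKM with the mimic (-0.28, SE 0.089, limma adjusted p = 0.210). Chrdl1, a relative of chordin, stood at 10.2 ± 0.530 and 8.96 ± 0.483 FPKM (-0.18). Nbl1, an antagonist of the DAN family, stood at 156 ± 17.6 and 202 ± 27.5 FPKM (0.37). For each of these 3 genes the groups did not overlap.

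Among 13 tested Smads, Smad regulators and other signal genes (Map3k7, Tab1 and Xiap), 2 had an unadjusted p under 0.05, both lower. The median over the list was -0.051 in log2 units. Leaving out control replicate 3 or 5, or mimic replicate 1, 2 or 5, left 1 gene. Smad7, the inhibitory Smad of TGF-beta and BMP signals, stood at 6.55, 6.40 and 6.10 FPKM in the controls and 4.93, 4.97, 4.92 and 4.47 FPKM with the mimic. The groups lay apart, and the log2 fold change of -0.36 (SE 0.064) had the smallest p of the 56 genes tested, 0.00061 before and 0.173 after adjustment (limma). It stayed between -0.39 and -0.33 when any library was left out. Skil, a repressor of Smad signals, had a log2 fold change of -0.30 and Ppm1a, a Smad phosphatase, 0.12 (0.052 without control replicate 5), both with overlapping groups. The BMP-activated Smads were named after their values were seen. Smad1 and Smad5 had 0.049 and 0.020 with overlapping groups. Smad9, below the filter at 0.618 FPKM in the controls and 0.869 FPKM with the mimic on average, had 0.29 without overlap (SE 0.095, unadjusted p 0.0184, limma adjusted p = 0.278 without the filter).

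Of 11 tested genes that BMPs are known to induce, 3 had an unadjusted p under 0.05, all higher, and the median log2 fold change was 0.28, or 0.11 without control replicate 5. The count was 6 without control replicate 2, and 1 without control replicate 5, mimic replicate 1 or mimic replicate 5. Dlx5, a homeobox factor of osteoblasts, stood at 9.08, 8.68 and 6.92 FPKM in the controls and 12.1, 11.5, 9.68 and 14.3 FPKM with the mimic (0.50, SE 0.14, limma adjusted p = 0.183). Dlx3, its relative, had a log2 fold change of 0.45 without overlap and Hey1, a target shared with Notch, 0.51 with overlap. Without control replicate 5 they were 0.27 and 0.48, with unadjusted p of 0.0801 and 0.0983 in limma. The osteoblast marker sum was likewise higher in each mimic ankle than in any control, and its part in the Dlx5 and Dlx3 values was not tested. The 4 Id genes, direct BMP targets named after their values were seen, did not share a direction. Id1, Id2 and Id3 had log2 fold changes of -0.020, -0.10 and 0.024 with overlapping groups. Id4, at 2.49 FPKM in the controls and 3.66 FPKM with the mimic on average, had 0.54 (SE 0.25, limma adjusted p = 0.312) with every mimic ankle above every control.

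**Figure D5:**
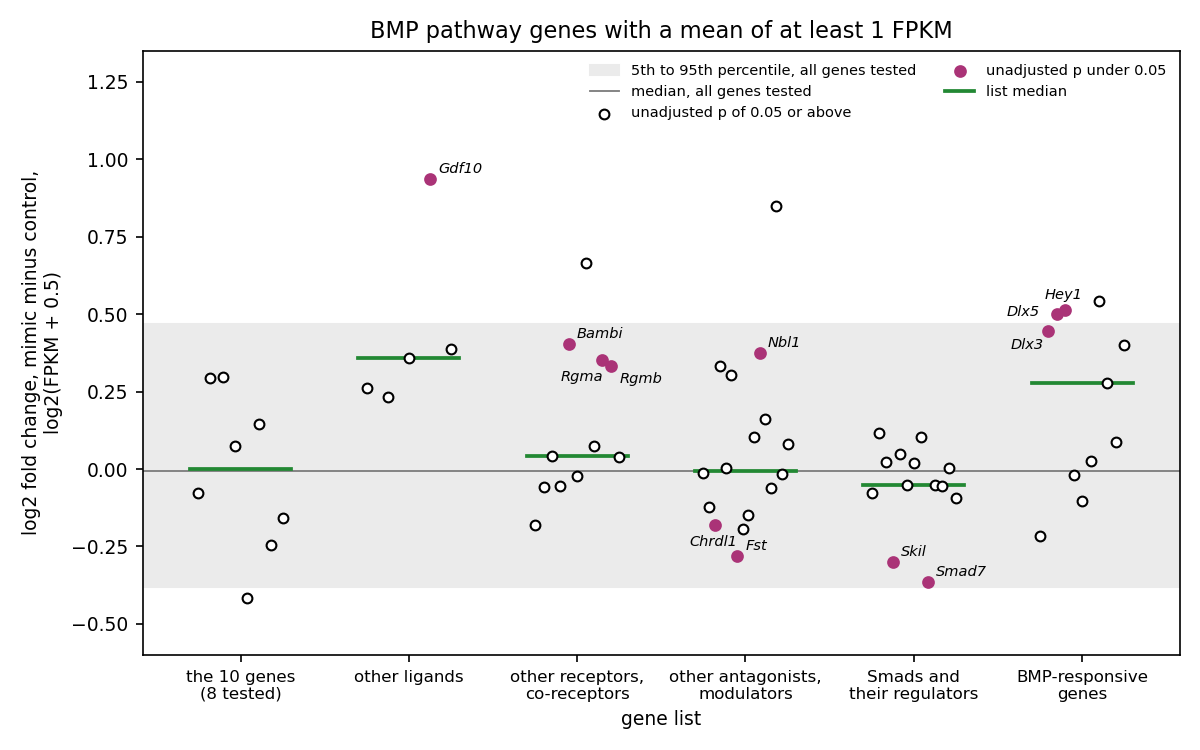
Points give the log2 fold change, mimic minus control (y axis), of tested genes in each list of the pathway (x axis), filled where the unadjusted p was under 0.05, with list medians in green and the 5th to 95th percentile of all genes tested in grey. The 8 tested BMP ligands, receptors and antagonists hold no filled point, and Gdf10 lies highest at 0.94.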

How the data were processed

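Per the file headers, the authors deposited an FPKM value for each gene in each library, beside exon positions and joined exon lengths. STAR 2.5.2b, Subread, featureCounts, DESeq2 1.14.1 and bcl2fastq 2.20 are listed in the submitters' processing notes without their roles, under builds mm10 and GRCm38. The sources used here give neither annotation release nor strand setting. Entrez numbers were matched to a RefSeq gene table of GRCm38.p6, with 25275 of 27179 named. Reads were recovered as FPKM times length over a step specific to the library, and 100% of values came out whole (tolerance 0.01 read). A chi-square of reads was at least 16.7 per gene over 21 pairs of libraries, so none was taken as a repeat.

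Groups were compared with limma 3.58.1 under R 4.3.3 (eBayes with a trend) on log2(FPKM + 0.5), 2-sided, for genes averaging 1 FPKM or more, with Benjamini-Hochberg adjustment over all of them. The pseudocount understates changes of low genes. The fit was tested on simulated data. The members and lists were chosen with earlier results of these data known. Named genes are the members and, per pathway list, the 3 with the smallest p. Motifs were searched in the longest UTR of protein-coding GENCODE M21 transcripts. Tables and plots used pandas 2.3.3 and matplotlib 3.10.9 under Python 3.11.15. Alternatives were other pseudocounts, filters and scalings, no trend, library weights, a replicate block, limma-voom and leaving out each library.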

Additional observations from a re-analysis of the deposited data

Results flagged for a closer look

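In the mimic group of 4, a gap of an extreme sample from its neighbour above Dixon's 95% critical value was found in 3 of 37 sets of values, where chance gives about 5% of sets. Bmpr1a stood highest in mimic replicate 5, at 15.9 FPKM. Smad7 stood lowest in the same library, at 4.47 FPKM. The osteoblast marker sum was lowest in mimic replicate 4, at 8047 FPKM, still above all controls.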

How the results depend on the processing

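At an adjusted p under 0.05, 0 of the genes tested among the 10 passed under any of the alternatives run. Bmp7 and Bmpr1b were tested only without the filter, and Bmp6, Bmpr2, Grem1 and Nog were not tested at 5 FPKM. Over all genes the count was 0 in the main test, 1 without a filter on low values (Scarna2) and from 0 to 318 when a library was left out. At an unadjusted p under 0.05 it was 2356, or 1216 to 3833 when a library was left out and 1064 with the replicate block. Of the members, 1 (Bmpr2) had an unadjusted p under 0.05 with quantile normalization and with library weights, and 0 to 2 when a library was left out (Bmpr2 and Bmp4 without control replicate 2, Bmpr2 and Bmp6 without mimic replicate 4). For other receptors 0 to 1 gene passed the adjusted test when a library was left out. Bmp2 ranged from -0.18 to 0.0081 when a library was left out, turning without control replicate 3. The replicate block, which rests on the numbers 2 and 5 found in both groups, turned Bmp2 to 0.060, Grem1 to 0.12, Nog to 0.25 and Chrd to -0.025. Control replicate 3 and mimic replicates 1 and 4, whose numbers are not shared, do not enter the difference in that fit. Same-numbered libraries correlated in their deviations at 0.54 for number 2 and -0.43 for number 5. Control replicate 5 and mimic replicate 1, which differ in number, correlated at 0.53. With so few shared numbers, these values cannot tell whether same-numbered samples were paired. Depth limits Grem1 and Bmp7 most, with as few as 28 and 29 reads.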

Other observations

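Seed matches of miR-17-5p were also counted in the other genes of the pathway, after the values were known. A match of at least 7 bases was present in 20 of 55 tested genes with an annotated 3′ UTR, or 36.4%. Over all tested genes with a UTR the share was 21.4%, and UTR length was not matched between the sets. Of the 20, 8 had a lower mean on the log scale in mimic ankles, where 48.3% of all genes tested had a higher one. The median log2 fold change of the 20 was 0.021, beside 0.042 for those without a match. Smad7 and Skil, both lower at an unadjusted p under 0.05, held 1 match of 7 bases each. Bambi, higher at the same threshold with a log2 fold change of 0.40, also held 1. The 3 genes with the 8-base GCACTTTA, Nbl1, Rgma and Rgmb, had log2 fold changes of 0.37, 0.35 and 0.33, with every mimic ankle above every control. Of all genes tested, 6.48% had every mimic ankle above every control. Over all tested genes the medians with and without a match were -0.0083 and -0.0084.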
